A study of Mus musculus with 4 samples.

Results

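Genes of the unfolded protein response and of plasma cell secretion were compared between B220+CD43+ cells with and without histone deacetylase 3. The set of 32 genes was chosen by symbol, and each symbol had 1 of the 23275 entries of the deposited table. All 32 were among the 12683 entries that the authors tested. Cells were sorted from the bone marrow of C57BL/6 mice at 8 weeks of age, and each of the 4 libraries of polyadenylated RNA pooled 2 mice. The 2 control libraries came from Hdac3+/+Mb1cre+/- mice and are called wild-type here, and the 2 others came from Hdac3F/-Mb1cre+/- mice and are called Hdac3-deleted. All animals carried 1 copy of Mb1-cre, a recombinase driven by the promoter of the B-lineage gene Cd79a, so cells outside the B lineage would keep the conditional allele, and the other allele was null in every cell of the Hdac3-deleted mice. The study concerned V(D)J recombination and B-cell development.

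Secreted and membrane proteins fold in the endoplasmic reticulum (ER) with the help of chaperones, glycan-binding lectins and enzymes that form disulfide bonds. When unfolded proteins accumulate, the sensors encoded by Ern1, Eif2ak3 and Atf6 start the unfolded protein response, in which the factors XBP1, ATF4 and ATF6 raise the genes of folding and of ER-associated degradation. Plasma cells run a related programme under the factors BLIMP-1 (Prdm1) and XBP1 to secrete antibody, while early B-lineage cells secrete little.

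Levels are the authors' FPKM, fragments per kilobase of transcript at a common library size, which are per length and so can be compared between genes. The table holds 1 value per genotype that combines its 2 libraries, so neither the spread between libraries nor their depth is known. A gene was called higher or lower at the authors' q-value under 0.05. Each log2 fold change (Hdac3-deleted over wild-type) is given with an approximate 95% interval, computed from the authors' own test statistic. Hdac3 itself was 46.8 FPKM in wild-type cells against 22.0 FPKM in Hdac3-deleted cells, or 47.1% of the wild-type level, and this value covers the whole gene. In the sorted cells, early B-lineage transcripts were abundant, such as Igll1 at 509 and 834 FPKM, and so were transcripts of plasmacytoid dendritic cells, such as Siglech at 420 and 590 FPKM. Transcripts of neutrophils and monocytes were abundant too, with 19 tested markers summing to 11312 FPKM in wild-type cells against 2809 FPKM in Hdac3-deleted cells. The values thus describe the whole sorted population and not a single cell type.

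Most of the folding and degradation machinery lay at nearly the same level in both genotypes, while 1 stress sensor was higher. Of 11 tested plasma cell markers 3 were lower, but 5 of the 11 had positive fold changes. Of the 32 genes, 3 fell (Igj, Sdc1 and Derl3), 1 rose (Eif2ak3) and 28 did not pass the test. Among all tested entries 4.14% were called lower and 2.81% higher, or 6.95% in either direction. A normal approximation to their test statistic, which called 1.08% of entries higher and 2.65% lower (3.73% in all), called 0 of the 32 genes higher and 1 lower. The 1 higher gene is 3.13% of the 32, close to that background, and the 3 lower genes are 9.38%. There were 16 positive and 16 negative fold changes, against 53.4% positive among all tested entries. Their log2 fold changes had a median of 0.00063, against 0.03 for all tested entries. Differences under 1.2-fold were seen for 22 of the 32 genes (68.8%), against 57.6% of all tested entries and 62.1% of the 10870 entries at or above the level of the lowest of the 32 genes.

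The 32 genes are abundant in these cells. Their median level, taken over the mean of the 2 genotype values, was 39.2 FPKM against 13.0 FPKM for all tested entries, and 29 of the 32 lay above that general median. Hsp90b1 was the most abundant of them, and Fkbp11, Prdm1 and Derl3 were under 10 FPKM in both genotypes. Together the 32 genes summed to 2757 FPKM in wild-type cells against 2670 FPKM in Hdac3-deleted cells, which was 0.472% and 0.470% of all FPKM.

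**Figure D1:**
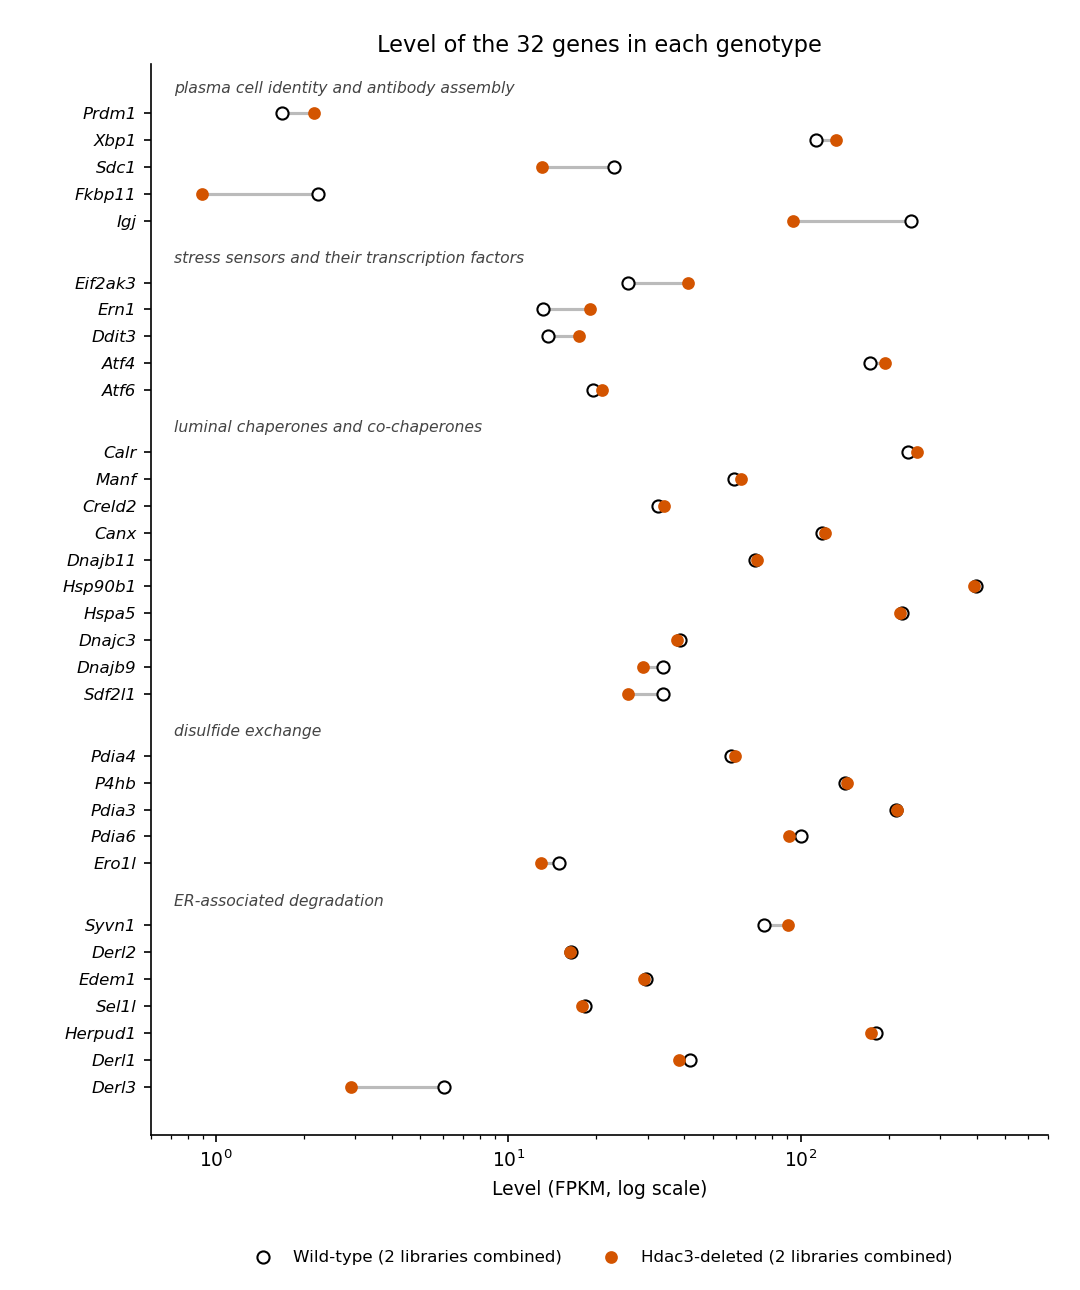
Level of each of the 32 genes in FPKM on a log axis, in wild-type (open circles) and Hdac3-deleted cells (filled circles), grouped by role; each circle is the authors' value for 2 libraries combined. The circles of most folding enzymes overlap, while those of Igj (239 and 93.9 FPKM), Sdc1, Fkbp11 and Derl3 stand apart to the left in Hdac3-deleted cells.

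Among genes of plasma cell identity and antibody assembly, 2 of 5 fell, against 4.14% of all tested entries. The transcription factors of that programme did not pass the test. Igj encodes the J chain, which links IgM and IgA into polymers, and it was 239 FPKM in wild-type cells against 93.9 FPKM in Hdac3-deleted cells. This was a 2.54-fold decrease, a log2 fold change of -1.35 with an interval from -1.80 to -0.89 (q = 0.0016 in the authors' deposited table). It was the only one of the 32 genes still called by a normal approximation to the test statistic. Igj lies on chromosome 5 from 88519809 to 88527897 (mm10). In bulk RNA of a sorted population, fewer cells that make a transcript and less of it per cell cannot be told apart.

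Sdc1 encodes syndecan-1 (CD138), a surface proteoglycan carried by plasma cells and by some precursors of B cells. It was 23.0 FPKM in wild-type cells against 13.0 FPKM in Hdac3-deleted cells, 1.76-fold lower, with a log2 fold change of -0.82 and an interval from -1.37 to -0.26. The authors' deposited table gives q = 0.0016, but by the normal approximation the adjusted value was 0.0850. Sdc1 lies on chromosome 12 from 8771396 to 8793687. Fkbp11, a prolyl isomerase of the secretory pathway, had a decrease of similar size to that of Igj but at 2.23 and 0.892 FPKM. Its log2 fold change was -1.32 with an interval from -2.44 to -0.20, and the authors' deposited table gives q = 0.130, so it was not called.

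Xbp1, the factor that drives ER expansion in secretory cells, was 113 FPKM in wild-type cells against 132 FPKM in Hdac3-deleted cells. Its log2 fold change of 0.22 had an interval from -0.28 to 0.73, and gene-level values do not separate the spliced Xbp1 mRNA from the unspliced one. Prdm1 was scarce, at 1.67 and 2.16 FPKM, with an interval from -0.27 to 1.01. Neither passed the test (q = 0.665 and 0.501 in the authors' deposited table). The fold changes of Xbp1 and Prdm1 were positive, whereas those of Igj, Sdc1 and Fkbp11 were negative.

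All 5 stress sensors and downstream factors had positive fold changes, against 53.4% of all tested entries. Their median was 0.35 on the log2 scale. Only Eif2ak3, 1 of the 5, passed the test, against 2.81% of all tested entries called higher. By the normal approximation 0 of the 5 were called. Eif2ak3 encodes PERK, the kinase that slows translation when the ER is stressed. It was 25.8 FPKM in wild-type cells against 41.1 FPKM in Hdac3-deleted cells, 1.60-fold higher, with a log2 fold change of 0.67 and an interval from 0.15 to 1.20. The authors' deposited table gives q = 0.0104, and the normal approximation gave 0.195. Eif2ak3 lies on chromosome 6 from 70844527 to 70905240. Ern1, which encodes the kinase and nuclease IRE1-alpha that splices Xbp1 mRNA, was 13.1 and 19.1 FPKM. Its log2 fold change was 0.54 with an interval from -0.03 to 1.11, and the authors' deposited table gives q = 0.0861.

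The 3 transcription factors of this group did not pass the test. Atf4, whose protein is made when PERK is active, was 172 FPKM in wild-type cells against 195 FPKM in Hdac3-deleted cells, with an interval from -0.36 to 0.71. Atf6, the membrane-bound factor cut in the Golgi, was 19.4 and 20.9 FPKM. Ddit3, which encodes the stress factor CHOP, was 13.7 and 17.4 FPKM with an interval from -0.97 to 1.67, the widest among the 32 genes. The locus of Ddit3 overlaps that of Mars in the table, which makes its value uncertain. Much of the control of these sensors acts on protein and on translation, which RNA levels do not show.

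**Figure D2:**
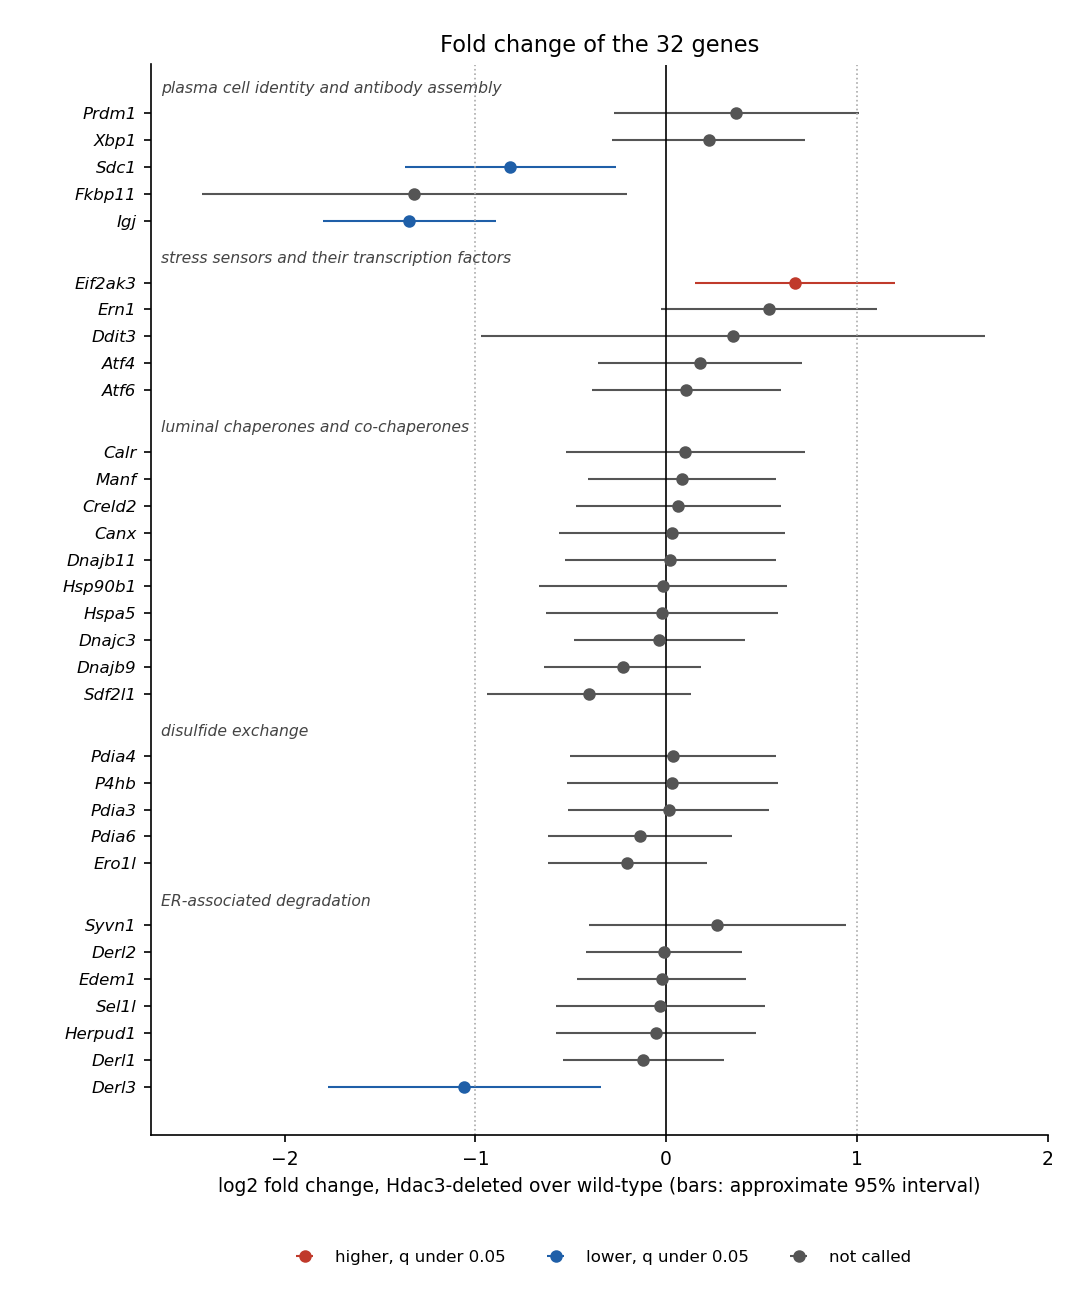
Log2 fold change of each of the 32 genes, Hdac3-deleted over wild-type, with approximate 95% intervals from the authors' test statistic; dotted lines mark a 2-fold difference. Igj, Sdc1 and Derl3 lie to the left and Eif2ak3 to the right, and the chaperones and disulfide enzymes lie near 0.

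Promoters of many folding genes carry a known binding site of the unfolded protein response, the ER stress response element (ERSE), which ATF6 and XBP1 recognise together with the CCAAT-binding factor NF-Y. Promoter sequences from RefSeq (GRCm38.p6, the assembly of mm10) reached from 250 bases before the annotated start to 50 after it and were found for 29 of the 32 genes, with 31 windows in all. The ERSE was searched on both strands as CCAAT, any 9 bases, then CCACG. It occurred in 9 of the 29 genes (31.0%), or 9 of their 31 windows, against 0.119% of the 32851 promoter windows of all genes. ERSE-II, searched as ATTGG, any base, then CCACG, occurred in Herpud1 and Dnajb11 and in 0.0365% of all windows. The UPRE core TGACGTG was found in Hspa5 and Fkbp11 (2.01% of all windows), and the amino acid response motif TGATGCAA in Herpud1 (0.895% of all windows). None of these matches overlapped another. The promoters of Igj, Sdc1 and Eif2ak3 held none of the 4 motifs in these windows.

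The following stretches, read on the strand of the gene, show the element in capitals for the most abundant chaperones, a disulfide enzyme and 3 degradation genes, so that the gene that fell (Derl3) can be set beside genes that did not pass the test. Where the capitals begin with CGTGG the element lies on the opposite strand.
Hspa5: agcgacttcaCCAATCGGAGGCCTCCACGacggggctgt
Hsp90b1, distal element: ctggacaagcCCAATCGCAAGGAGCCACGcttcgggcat
Hsp90b1, proximal element: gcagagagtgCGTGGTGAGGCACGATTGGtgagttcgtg
Calr: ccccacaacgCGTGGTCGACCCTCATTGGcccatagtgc
Pdia6: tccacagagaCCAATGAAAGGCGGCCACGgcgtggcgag
Syvn1: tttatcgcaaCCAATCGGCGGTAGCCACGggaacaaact
Derl3: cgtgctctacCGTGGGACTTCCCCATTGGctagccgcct
Herpud1: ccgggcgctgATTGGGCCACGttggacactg

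The element of Hspa5 lies at chr2:34772025-34772043, plus strand, from 65 to 47 bases before the start, and that of Derl3 at chr10:75893242-75893260, plus strand, from 156 to 138 bases before it. Among all tested entries 4.14% were called lower and 2.81% higher. Of the 11 genes with an ERSE or ERSE-II, 1 fell (Derl3) and 10 did not pass the test. The log2 fold changes of those 10 lay between -0.14 (Pdia6) and 0.27 (Syvn1), with wild-type levels from 32.6 to 397 FPKM. Derl3, at 6.04 FPKM in wild-type cells, was the least abundant of the 11 and the only one called by the authors' q. It was not called by the normal approximation. Differences in fold change between these genes were not tested. The 18 genes with a promoter window but neither element had a median log2 fold change of 0.00063, with 1 higher and 2 lower. A match is a stretch of letters and does not show that a factor binds there.

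**Figure D3:**
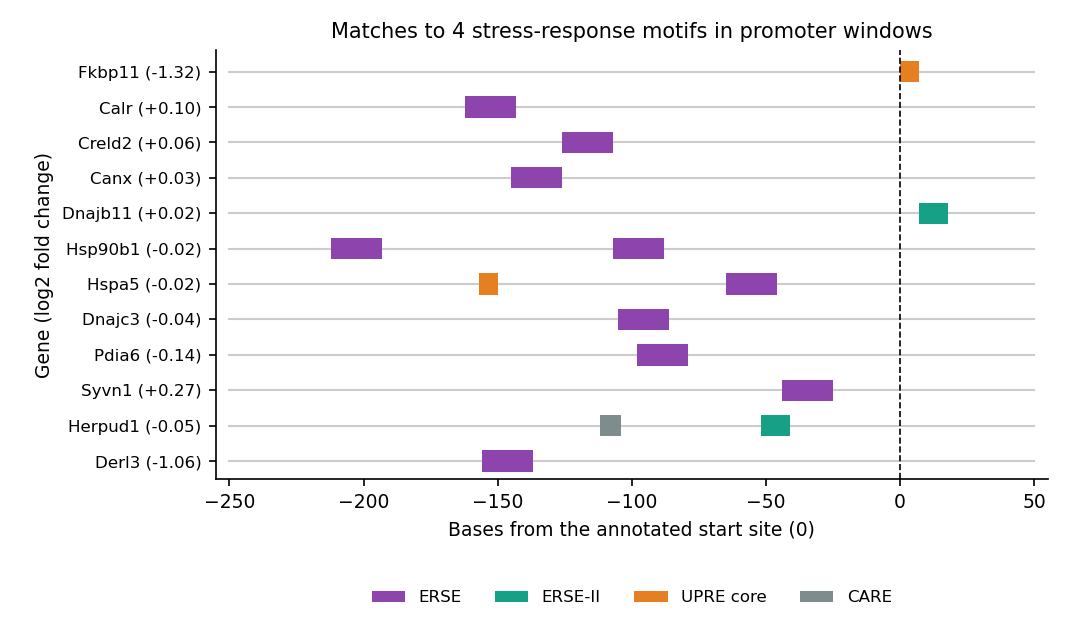
Positions of matches to the 4 motifs in the promoter windows of the 12 genes that hold one, in bases from the annotated start site (0); the log2 fold change of each gene is in parentheses. All ERSE matches lie between 212 and 26 bases before the start, and all but that of Derl3 (-1.06) are in genes with fold changes between -0.14 and 0.27.

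The 250 bases before the start of Derl3 are shown as the promoter of the only gene with an ERSE that passed the test (chr10:75893148-75893397, plus strand), with the ERSE in capitals.
Derl3: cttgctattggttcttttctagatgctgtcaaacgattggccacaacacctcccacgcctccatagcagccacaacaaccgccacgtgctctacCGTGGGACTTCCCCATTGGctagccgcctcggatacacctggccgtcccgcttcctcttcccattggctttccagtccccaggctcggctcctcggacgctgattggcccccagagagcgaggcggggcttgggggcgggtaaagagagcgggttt

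None of the 10 luminal chaperones and co-chaperones was called (0 also at an unadjusted p under 0.05 in the authors' Cuffdiff test, and 0 by the normal approximation). Their levels summed to 1239 FPKM in wild-type cells against 1242 FPKM in Hdac3-deleted cells, with a median log2 fold change of 0.0020. Hspa5 encodes BiP, the HSP70 chaperone that holds the stress sensors inactive, and it was 222 FPKM in wild-type cells against 218 FPKM in Hdac3-deleted cells. Its log2 fold change of -0.02 had an interval from -0.63 to 0.59, which leaves a 2-fold difference in either direction outside the interval. Hsp90b1, the HSP90 chaperone GRP94, was 397 and 392 FPKM. The lectins calreticulin (Calr) and calnexin (Canx), which hold glycoproteins until they fold, were 233 and 250 FPKM and 119 and 121 FPKM.

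Among the co-factors of BiP, the J-domain proteins Dnajb11 and Dnajc3 were 69.7 and 70.7 FPKM and 38.6 and 37.7 FPKM. The others differed somewhat more, with lower values in Hdac3-deleted cells that did not pass the test. Dnajb9 was 33.9 and 28.9 FPKM, and Sdf2l1, a partner of J-domain proteins, was 33.9 and 25.6 FPKM. The interval of Sdf2l1, from -0.94 to 0.13, was the one reaching furthest below 0 in this group (q = 0.293 in the authors' deposited table). Manf and Creld2, secreted ER proteins induced by stress, were 59.2 and 62.7 FPKM and 32.6 and 34.1 FPKM.

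The 5 enzymes of disulfide exchange were likewise not called (0 at an unadjusted p under 0.05 in the authors' Cuffdiff test, and 0 by the normal approximation), and they summed to 527 and 523 FPKM. Pdia3, which works with the lectins on glycoproteins, was 212 FPKM in wild-type cells against 214 FPKM in Hdac3-deleted cells, and P4hb, protein disulfide isomerase itself, was 141 and 145 FPKM. Pdia6 was 100.5 and 91.3 FPKM, and Pdia4 58.0 and 59.5 FPKM. The loci of both overlap another entry of the table. Ero1l, the oxidase that recharges these enzymes, was 14.9 and 12.9 FPKM with an interval from -0.62 to 0.21.

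In ER-associated degradation, which returns misfolded proteins to the cytosol, 1 of 7 genes fell, against 4.14% of all tested entries. The summed level of the 7 genes was 368 FPKM in wild-type cells against 370 FPKM in Hdac3-deleted cells. Derl3, a derlin found mainly in secretory cells, was 6.04 FPKM in wild-type cells against 2.90 FPKM in Hdac3-deleted cells, 2.08-fold lower. Its log2 fold change of -1.06 had an interval from -1.77 to -0.34, with q = 0.0131 in the authors' deposited table and 0.0845 by the normal approximation. Derl3 lies on chromosome 10 from 75893398 to 75895941. Its paralogs did not pass the test, and both were more abundant: Derl1 was 41.8 and 38.5 FPKM and Derl2 16.3 and 16.2 FPKM. The intervals of Derl1 (-0.54 to 0.30) and Derl2 (-0.42 to 0.40) lie above a 2-fold decrease. The difference between the paralogs' fold changes was not tested.

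The other degradation genes did not pass the test. Herpud1, a stress-induced scaffold of the degradation complex, was 181 FPKM in wild-type cells against 175 FPKM in Hdac3-deleted cells. The ubiquitin ligase Syvn1 was 75.0 and 90.3 FPKM, and its locus overlaps that of Mrpl49. Its adaptor Sel1l was 18.3 and 17.9 FPKM, and the mannosidase-like Edem1, which marks glycoproteins for disposal, was 29.6 and 29.1 FPKM. Of all 28 genes not called among the 32, 24 had intervals inside a 2-fold difference in both directions. The intervals of Fkbp11, Prdm1, Ern1 and Ddit3 reached beyond it.

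**Figure D4:**
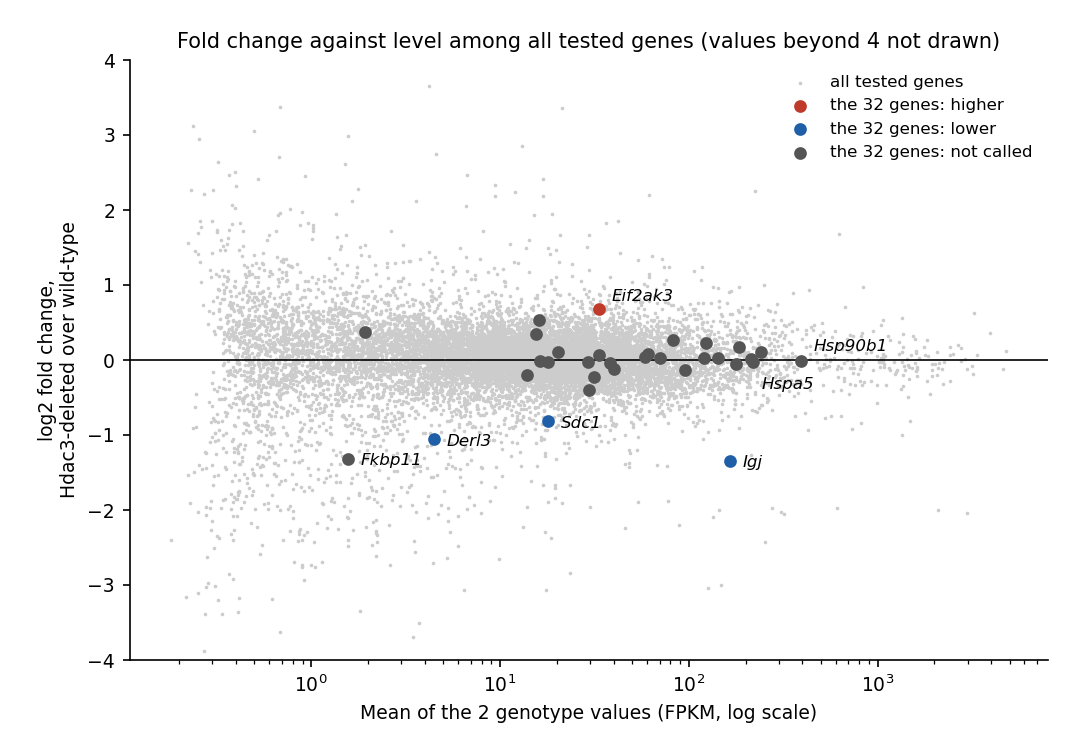
Log2 fold change (Hdac3-deleted over wild-type) against the mean of the 2 genotype values in FPKM on a log axis, for all tested genes (small points) and the 32 genes (large points); 52 tested entries beyond 4 log2 units or at 0 in a genotype are not drawn. Igj lies well below most genes of its level, and most of the other 31 genes lie within the band around 0.

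The wider secretory pathway was examined in 6 further lists of ER genes that share no gene with the 32. Of their 160 tested genes 3 rose and 2 fell, or 1.88% and 1.25%, against 2.81% and 4.14% of all tested entries, and the median log2 fold change was 0.0018. Signal peptide handling and translocation (26 tested), N-glycan attachment (27) and transport from ER to Golgi (31) had 0 called genes in the authors' Cuffdiff test, with 1 of the 84 at an unadjusted p under 0.05 and 0 by the normal approximation. All 84 log2 fold changes lay between -0.66 and 0.28. Sec11c and Sec61b, a signal peptidase subunit and a translocon subunit, were 232 and 185 FPKM and 228 and 185 FPKM. Ost4, a subunit of the glycan-transferring enzyme whose locus overlaps another entry, was 202 and 188 FPKM, and the cargo receptor Tmed2 was 198 and 192 FPKM.

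The 5 called genes of these lists came from the regulators, the degradation genes and the folding enzymes. Of 29 tested further regulators, 1 rose and 2 fell, with a median of 0.13. Wfs1, an ER membrane protein, rose by 0.59 on the log2 scale, from 11.2 to 16.9 FPKM. Ppp1r15a, the phosphatase subunit GADD34 that reverses the action of PERK, fell 1.64-fold from 9.47 to 5.78 FPKM. Its approximate interval, from -1.45 to 0.03 on the log2 scale, includes no difference, unlike those of the other called genes of these lists. Cebpb, a partner of CHOP that is also a myeloid factor, fell 2.28-fold from 8.94 to 3.91 FPKM. Of 26 further degradation genes, Ngly1, the glycan-removing enzyme, rose 1.67-fold from 23.1 to 38.7 FPKM, and its locus overlaps another entry. Of 21 further folding enzymes, the calnexin relative Clgn rose 2.08-fold from 1.20 to 2.50 FPKM. The authors' deposited table gives q = 0.0491 for Wfs1, 0.0216 for Ppp1r15a, 0.0016 for Cebpb, 0.0170 for Ngly1 and 0.0266 for Clgn, and of these 5 Cebpb alone was still called by the normal approximation. In the same samples, neutrophil and monocyte markers such as Lyz2 were lower, and their part in the value of Cebpb was not tested.

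**Figure D5:**
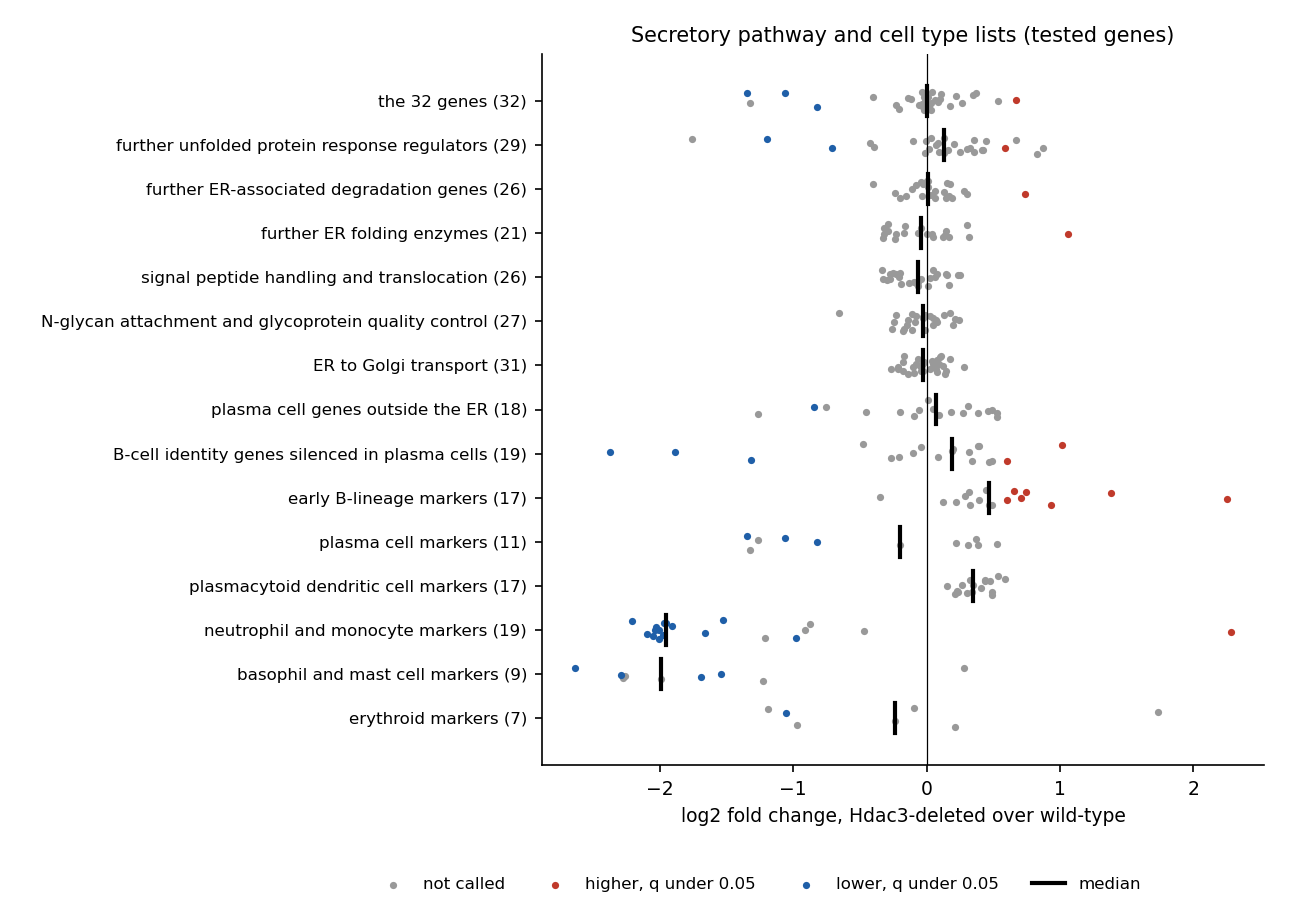
Log2 fold change (Hdac3-deleted over wild-type) of every tested gene in each list, with the number tested in parentheses; vertical bars are medians and coloured points passed the authors' test. The secretory lists gather around 0, early B-lineage and plasmacytoid dendritic cell markers lie mostly to the right, and the medians of the neutrophil and monocyte markers and of the basophil and mast cell markers lie near -2 (-1.96 and -1.99).

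In a list of 18 tested further plasma cell genes, 0 rose and 1 fell, against 2.81% and 4.14% of all tested entries. The median log2 fold change of the list was 0.07. Only Cd38, an ectoenzyme of the B-cell surface, fell, 1.80-fold from 35.9 to 20.0 FPKM (q = 0.0016 in the authors' deposited table). The list is not confined to genes outside the ER, since Txndc5 and Tram2 are also in the ER lists above. Of the 11 tested plasma cell markers, 6 of which belong to the 32 genes, 5 had positive and 6 negative fold changes, and none was at 0. Of the 11, 0 rose and 3 fell (Igj, Sdc1 and Derl3), against 2.81% and 4.14% of all tested entries. The summed level of all 11 was 775 FPKM in wild-type cells against 777 FPKM in Hdac3-deleted cells. The antibody-folding cofactor listed as 2010001M09Rik (Mzb1) was 230 and 332 FPKM and Irf4, a factor needed for plasma cells, 85.0 and 111 FPKM, and neither passed the test. Chosen after their values were seen, Slamf7 was 64.3 and 79.7 FPKM, Ell2 8.83 and 7.70 FPKM and the receptor gene Tnfrsf17 (BCMA) 1.91 and 0.799 FPKM, none of them called. Immunoglobulin constant region genes were not analysed here. Of 19 tested B-cell identity genes that plasma cells silence, 2 rose and 3 fell, against 2.81% and 4.14% of all tested entries, with a median of 0.19. The 3 that fell are genes of mature B cells: the complement receptor gene Cr2 fell 5.17-fold from 0.546 to 0.106 FPKM, Fcer2a (CD23) 3.70-fold from 3.52 to 0.952 FPKM, and Ms4a1 (CD20), whose locus overlaps another entry, 2.49-fold from 28.3 to 11.3 FPKM. Foxo1, a transcription factor of early B-cell development, rose 2.03-fold from 38.3 to 77.6 FPKM, and Pax5, named after its values were seen, rose 1.52-fold from 79.7 to 121 FPKM. The authors' deposited table gives q = 0.0016 for the first 4 and 0.0354 for Pax5, and by the normal approximation the first 4 were still called and Pax5 was not.

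Markers of other cells that the gate could hold were measured in the same samples. For comparison, 4.14% of all tested entries were called lower and 2.81% higher. Of 19 tested neutrophil and monocyte markers, 14 fell and 1 rose, and their summed level was 11312 FPKM in wild-type cells against 2809 FPKM in Hdac3-deleted cells, with none at 0. Lyz2, for example, was 518 and 125 FPKM. Of 9 basophil and mast cell markers 4 fell, with sums of 36.1 and 16.5 FPKM, and of 7 erythroid markers 1 fell, with sums of 204 and 152 FPKM. Of 17 early B-lineage markers 7 rose and 0 fell, with sums of 4347 and 5653 FPKM. Among 17 plasmacytoid dendritic cell markers, a cell type that also secretes much protein, 0 were called in the authors' Cuffdiff test, with 5 at an unadjusted p under 0.05 and 0 by the normal approximation. All 17 had positive fold changes, against 53.4% of all tested entries, with sums of 2716 and 3436 FPKM. The part of these cells in the values of Igj, Sdc1, Derl3 and Eif2ak3 was not tested.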

How the data were processed

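Polyadenylated RNA of 4 libraries was measured, grouped by the genotype in the labels. The submitters' processing notes name Trimmomatic 0.32, TopHat2 2.0.11, Cuffdiff 2.1.1 and mm10; options, annotation and strand handling are not stated there. Per the file headers, the authors deposited 1 FPKM per gene for each genotype, combined from 2 libraries. The deposited p-value and q-value are those of the authors' Cuffdiff test; the smallest p-value, 5e-05, gives q = 0.0016. The deposited test statistic is a score from which standard errors (log2 fold change over statistic) and normal intervals were computed; they rest on the authors' model. No values per library were used, so p-values measure only what that model took from 2 libraries per genotype.

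Fold changes were computed from FPKM without a pseudocount. The 32 genes and all lists were chosen with earlier results of these data known. Any of the 32 genes could be named. In each further list of secretory genes the rule named up to 4 called genes by q and then fold, or 2 by level where none was called, and in marker lists up to 4 by level; other genes are marked as chosen after their values were seen. Older symbols gave 5 further entries, and 16 listings had no entry used under the symbol given. These include Mzb1, in 2 lists, whose gene is listed as 2010001M09Rik. A locus was taken as shared when it overlapped another entry by at least 1 base. Alternatives changed the q threshold (0.01, 0.1), a 1.5-fold minimum, a 1 FPKM filter, a 1 FPKM pseudocount, centring, shared loci and a normal approximation. The code for standard errors and adjusted values was checked on simulated data with normal errors. That check does not show how well the intervals fit these data. Tools were scipy 1.17.1 and pandas 2.3.3 under Python 3.11.15, with numpy 2.4.6, and matplotlib 3.10.9 for figures.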

Additional observations from a re-analysis of the deposited data

How the results depend on the processing

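Among the 32 genes, 1 was called higher and 3 lower. At q under 0.01 the counts were 0 and 2, at q under 0.1 they were 2 and 3, and by a normal approximation to the test statistic 0 and 1. The called genes kept these counts with a 1.5-fold minimum, with a minimum of 1 FPKM and without shared loci. The 8 further lists (secretory, plasma cell and B-cell identity genes) together had 5 higher genes, against 1 at q under 0.01 and 1 by the normal approximation, in both cases Foxo1 of the B-cell identity list, and the marker lists had 8, against 4 and 3. Counts of lower genes in those lists stayed within 1.5 times of 6 and 22 under every alternative run. A pseudocount of 1 FPKM turned no fold change of the 32 genes, and centring on the median entry (0.02) turned 2 that were not called, Dnajb11 to -0.0031 and Pdia3 to -0.012. Over the 12643 tested entries with a test statistic and values above 0 in both genotypes, the normal approximation called 136 higher and 335 lower, against 356 and 525 of 12683 by the authors' q. No library could be left out, since the table gives 1 value per genotype. No paired analysis was possible because no values per library were used. Depth is unknown, and low genes such as Prdm1 and Fkbp11 have wide intervals.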
